A study of Mus musculus with 21 samples.

Results

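Metallothionein genes and antioxidant genes controlled by the transcription factor NRF2 were followed in formative stem cells, epiblast stem cells and the early mouse epiblast. The 9 genes were taken by symbol from the 33861 genes of the count table: the metallothioneins Mt1 and Mt2, haem oxygenase Hmox1, the quinone reductase Nqo1, the glutathione synthesis genes Gclm and Gclc, thioredoxin reductase Txnrd1, sulfiredoxin Srxn1 and the glutathione transferase Gsta4. All 9 passed the low-count filter in every fit.

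Metallothioneins are small, cysteine-rich proteins that bind zinc and copper. Their genes are switched on by the zinc-sensing factor MTF1, which binds metal response elements, and the product is a buffer for free zinc and for reactive metals. NRF2, encoded by Nfe2l2, is held by KEAP1 and degraded in unstressed cells. When KEAP1 is modified by oxidants or electrophiles, NRF2 pairs with a small MAF protein at antioxidant response elements and raises genes for glutathione synthesis, thioredoxin recycling and detoxification.

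RNA-seq libraries were made from total RNA of 12 cultured samples of 1000 cells each and of 9 mouse epiblasts, the pluripotent layer of the embryo, each collected by itself. Formative stem (FS) cells were grown in a medium named A3XR and came from a pair of lines, FS1 (5cdr1, passages 10, 11 and 18) and FS2 (5cdr2, passages 12, 13 and 16). Epiblast stem cells (EpiSCs), whose descriptions carry the line name E14, were grown in a medium named AF or in one named AFX, each sampled at passages 14, 15 and 16. The labels do not spell out what the media hold, and no gene was altered in any group as far as they say. Epiblasts were titled E5.0 (embryos 1, 2 and 4), E5.5 (embryos 1, 2 and 3) and E6.0 (embryos 1, 2 and 3), although another field of the same 3 labels reads E6.5. Passages of 1 line are not independent derivations, so p-values among cultured cells measure the spread between passages and, for FS cells, between 2 lines. In FS cells against EpiSCs the line and the medium differ together, and in cultured cells against epiblasts the input, culture and line do, so these cannot be told apart.

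Total counts were 7703118 to 15916800 in cultured samples and 5827093 to 13006656 in epiblasts, and 3 counts were worth 0.171 to 0.589 CPM (counts scaled to a common library size). Epiblast markers were abundant everywhere, with summed levels of 1178 to 2870 CPM in cultured cells and 3890 to 7147 CPM in epiblasts. Markers of visceral endoderm, the layer that wraps the epiblast, summed to 7.05 to 14.5 CPM in FS cells, 14.998 to 24.9 CPM in AFX, 58.3 to 88.5 CPM in AF, 26.9 to 35.1 CPM at E6.0, 44.6 to 89.6 CPM at E5.5 and 311 to 921 CPM at E5.0. In AF the visceral endoderm sum came mainly from Sox17 (23.6 to 42.95 CPM), Gata6 (14.2 to 22.6 CPM) and Dab2 (12.7 to 18.6 CPM). Other listed genes were scarce there, with Ttr, Amn and Hnf4a each at 0.615 CPM or less. Cubn had 0.264 to 0.464 CPM in AF and 149.6 to 629 CPM at E5.0. Fibroblast markers, read from 8 of the 9 listed genes, summed to 226 to 267 CPM in AF and to no more than 61.3 CPM in any other library. In these bulk samples fewer cells of a type and less RNA per cell cannot be told apart.

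Mt1 (ENSMUSG00000031765, chr8:94179082-94180327, plus strand, GRCm38) and Mt2 (ENSMUSG00000031762, chr8:94172664-94173568, plus strand) are neighbours on chromosome 8. Because the metallothionein pair moved together between culture and embryo, the 250 bases before each RefSeq start (GRCm38.p6) are shown 5′ to 3′, with matches to the metal response element core in capitals. The letters searched were TGCACNC and TGCGCNC on both strands.

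Mt1, chr8:94178839-94179088: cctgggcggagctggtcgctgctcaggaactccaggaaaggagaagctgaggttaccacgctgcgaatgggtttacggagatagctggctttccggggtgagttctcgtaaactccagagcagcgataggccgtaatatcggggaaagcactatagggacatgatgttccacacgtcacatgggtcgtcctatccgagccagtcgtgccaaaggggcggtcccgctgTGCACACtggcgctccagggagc
Mt2, chr8:94172368-94172617: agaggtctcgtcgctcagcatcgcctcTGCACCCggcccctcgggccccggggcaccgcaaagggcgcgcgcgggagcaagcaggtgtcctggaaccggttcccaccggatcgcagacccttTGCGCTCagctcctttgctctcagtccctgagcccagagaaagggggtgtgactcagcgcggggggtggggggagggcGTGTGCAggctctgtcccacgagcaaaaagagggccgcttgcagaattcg

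The Mt2 window held 3 matches and the Mt1 window held 1. Among the other members with a promoter, Gclm held 2 matches to the same letters, Srxn1 held 1, and Nqo1 and Txnrd1 held 0. Over 32851 promoter windows of the same length, 21.4% held at least 1 match and 1.26% held at least 3. The window depends on the start that is used, since GENCODE M21 also has coding transcripts of Mt1 that begin at 94179211 and 94179241 and one of Mt2 that begins at 94172860. The bases between each window and those later starts were not searched. The counts therefore do not compare the promoters of Mt1 and Mt2 in full.

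The metallothioneins were the members that separated culture from embryo most widely. Mt1 in the 12 cultured samples ran from 7.998 CPM through a median of 17.6 CPM to 51.6 CPM. In the 9 epiblasts it ran from 94.9 CPM through a median of 137 CPM to 187 CPM. Every epiblast therefore lay above every cultured sample. The fitted log2 difference of cultured cells from epiblasts was -2.90 ± 0.28 (SE, adjusted p = 2.10e-07, edgeR quasi-likelihood test with Benjamini-Hochberg adjustment), a level 7.48-fold lower in culture. Mt2 ran from 1.62 CPM through a median of 3.66 CPM to 15.2 CPM in culture and from 62.0 CPM through 75.6 CPM to 115 CPM in epiblasts, again without overlap. Its log2 difference was -4.39 ± 0.30 (SE, adjusted p = 1.54e-09 by the same test), or 20.96-fold lower. Both genes held this call in all 27 alternative analyses, with log2 values from -3.04 to -2.80 for Mt1 and from -4.59 to -4.17 for Mt2.

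**Figure D1:**
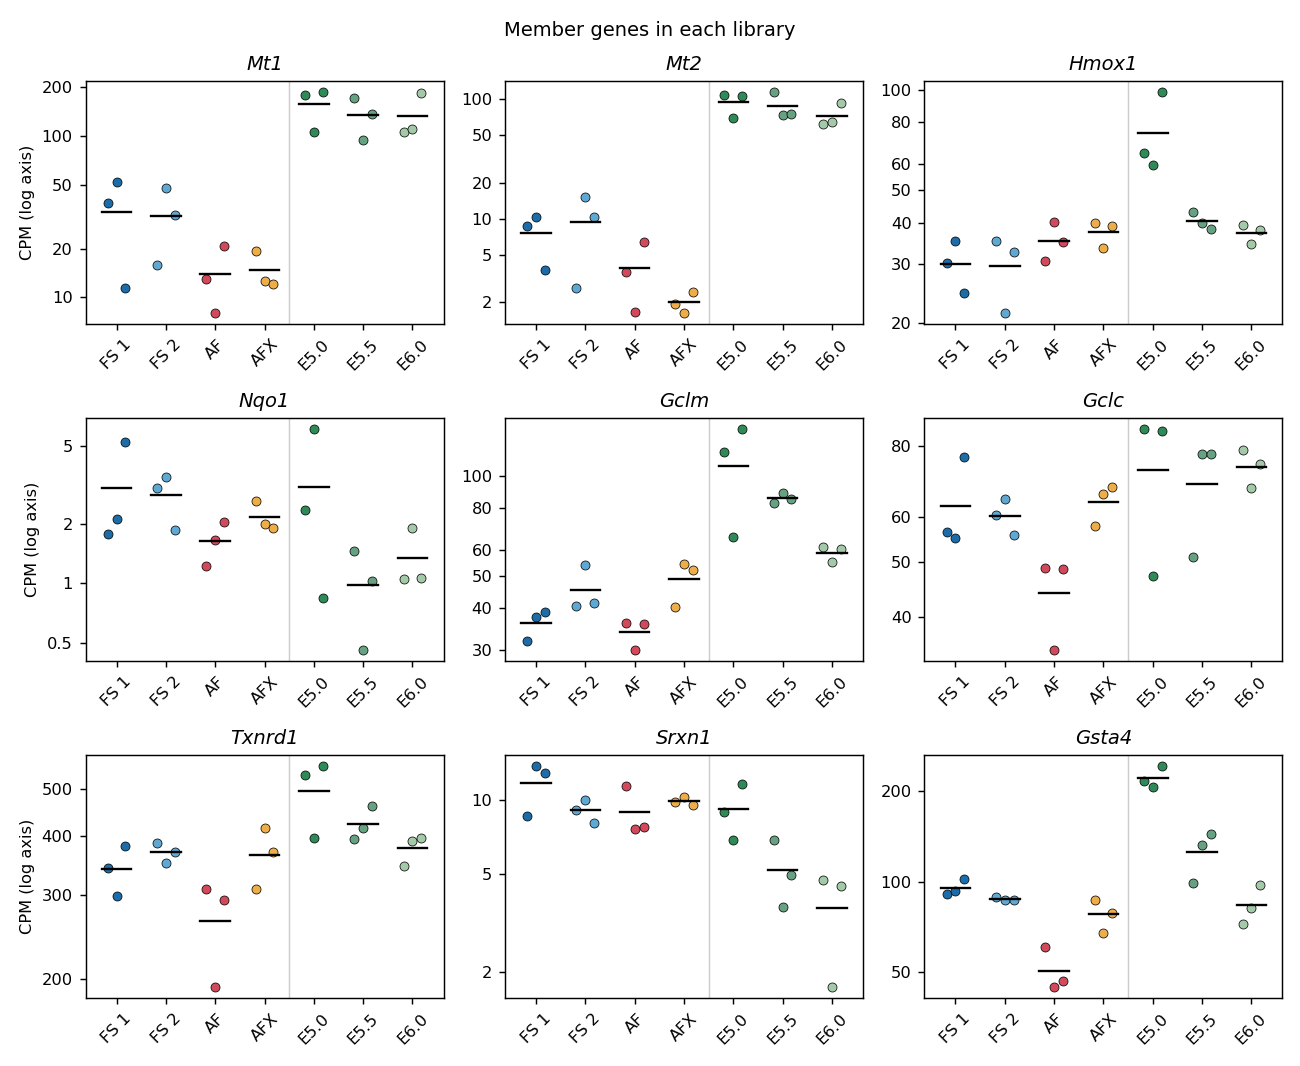
CPM of each of the 9 genes on a log axis in the 21 libraries, by FS line, medium and epiblast stage. Points are libraries and bars are group means. Mt1 and Mt2 lie lower in all 12 cultured samples than in any epiblast, while Gsta4 steps down from E5.0 to E6.0.

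Among the cultured groups, Mt1 was uneven within FS cells and lower on average in EpiSCs. FS1 had 38.3, 51.6 and 11.4 CPM at passages 10, 11 and 18, and FS2 had 15.8, 47.8 and 32.3 CPM at passages 12, 13 and 16. AF samples held 12.95, 7.998 and 20.9 CPM at passages 14, 15 and 16, and AFX samples held 19.4, 12.6 and 12.1 CPM. The lower FS samples, FS1 passage 18 and FS2 passage 12, sat inside the EpiSC range, so the groups overlapped. The log2 difference was 1.22 ± 0.49 (SE) for FS against AF (adjusted p = 0.105) and 1.14 ± 0.48 (SE) for FS against AFX (adjusted p = 0.185), neither past the threshold of 0.05 with edgeR's quasi-likelihood test. FS against AF passed in 2 of 17 alternatives, 1 of them without FS1 passage 18 (1.398, adjusted p = 0.0300), and FS against AFX passed in 1 of 17.

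Mt2 followed the same samples but fell lowest in AFX. FS1 had 8.73, 10.3 and 3.75 CPM, and FS2 had 2.65, 15.2 and 10.35 CPM, in the passage order above. AF had 3.58, 1.67 and 6.40 CPM, and AFX had 1.95, 1.62 and 2.41 CPM. All 6 FS samples lay above all 3 AFX samples, and FS and AF overlapped. FS against AFX gave a log2 difference of 2.06 ± 0.56 (SE, adjusted p = 0.0336, edgeR). That call was lost in 6 of 17 alternatives, among them leaving out any 1 AFX passage, FS2 passage 13 or FS2 passage 16, where the log2 difference stayed between 1.82 and 2.22. FS against AF (1.11 ± 0.52, adjusted p = 0.157) and AFX against AF (-0.95 ± 0.61, adjusted p = 0.413) did not pass.

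Across epiblast stages neither metallothionein passed a test. Mt1 was 179, 106 and 187 CPM at E5.0 (embryos 1, 2 and 4), 173, 94.9 and 137 CPM at E5.5 and 105, 110 and 184 CPM at E6.0. Mt2 was 108, 69.5 and 107 CPM at E5.0, 115, 74.3 and 75.6 CPM at E5.5 and 62.0, 64.1 and 92.9 CPM at E6.0. The stages overlapped for both genes, and the log2 difference of E6.0 from E5.0 was -0.26 ± 0.32 (SE, adjusted p = 0.621, edgeR) for Mt1 and -0.40 ± 0.23 (SE, adjusted p = 0.242, edgeR) for Mt2. Summed visceral endoderm markers were lower at E6.0 (26.9 to 35.1 CPM) than at E5.0. They were also lower than in AF EpiSCs (58.3 to 88.5 CPM, mainly Sox17, Gata6 and Dab2). Their part in the metallothionein levels was not tested.

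The balance of the pair was also read in each library. The Mt1 to Mt2 ratio of counts, not corrected for length, was 3.04 to 5.97 (median 3.71) in FS cells, 3.26 to 4.79 in AF, 5.03 to 9.97 in AFX and 1.28 to 1.98 (median 1.70) in epiblasts. No cultured sample overlapped the epiblasts. This ratio and the Gclm to Gclc ratio described further on were chosen after their values were seen, so they are described without a test. The mean log2 ratio was 1.99 ± 0.42 (SD, n = 6) in FS cells, 1.94 ± 0.29 (SD, n = 3) in AF, 2.87 ± 0.50 (SD, n = 3) in AFX and 0.72 ± 0.18 (SD, n = 9) in epiblasts. The genes are close paralogs, and how reads shared between them were counted is not given in the sources used here.

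**Figure D2:**
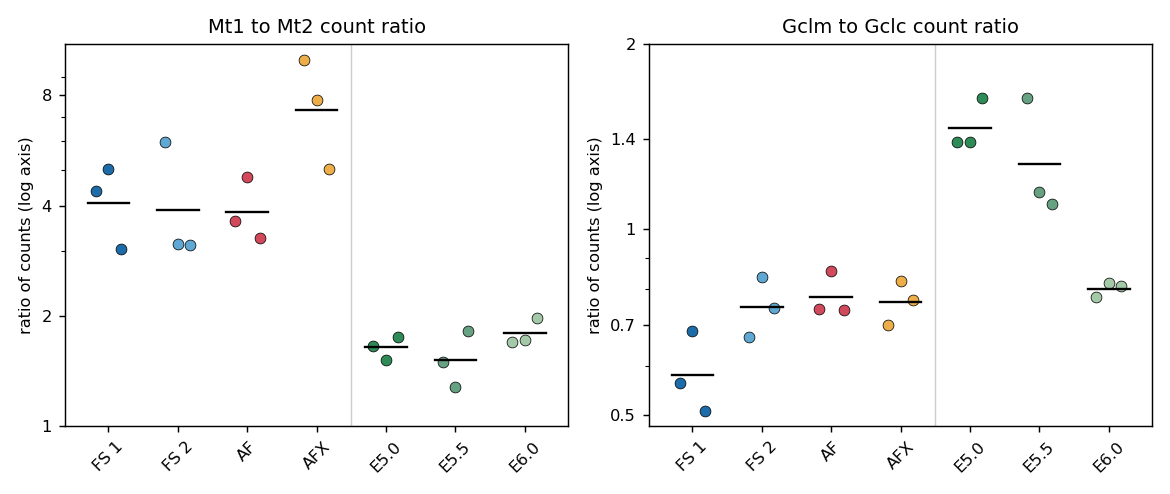
Ratio of Mt1 to Mt2 counts (left) and of Gclm to Gclc counts (right) on log axes, 1 point per library and bars for geometric means. The Mt1 to Mt2 ratio lies between 1.28 and 1.98 in the epiblasts and at 3.04 or more in culture, and the Gclm to Gclc ratio at E6.0 (0.776 to 0.819) falls within the cultured range.

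Of 13 listed genes that handle zinc and metals, 12 were tested in cultured cells against epiblasts, where 4 were higher and 3 lower (median log2 difference 0.01, against 0.09 over all genes). These shares are near those of all genes tested, of which 61.8% were called, 33.9% higher and 27.9% lower. Another metallothionein, Mt3, was called higher in culture (1.95 ± 0.60, adjusted p = 0.00688, edgeR), the direction opposite to Mt1 and Mt2. Mt3 was scarce, at 0.176 to 2.37 CPM in culture, 0.589 to 3.12 CPM at E5.0 and 0.263 CPM or less at E5.5 and E6.0, and the groups overlapped. Slc30a1, a zinc exporter and a classic MTF1 target, was lower in culture by a log2 difference of -0.97 ± 0.17 (SE, adjusted p = 3.35e-05, edgeR), with 11.3 to 23.1 CPM in FS cells, 9.84 to 29.0 CPM in AF, 13.9 to 22.2 CPM in AFX and 23.5 to 55.7 CPM in epiblasts. It rose from E5.5 to E6.0 (0.89 ± 0.21), a step at which the metallothioneins did not pass. Mtf1 itself was lower in culture than in the pooled epiblasts by a log2 difference of -0.32 ± 0.11 (adjusted p = 0.0154, edgeR). It had 18.5 to 32.0 CPM at E5.0 and 16.6 to 23.6 CPM at E5.5. At E6.0 it had 12.9 to 17.7 CPM, which lies within the cultured range of 12.5 to 17.8 CPM. The importers Slc39a8 and Slc39a14 were higher in culture (log2 differences 4.68 ± 0.34 and 1.60 ± 0.16). The importer Slc39a4 was lower in culture than in the pooled epiblasts (-0.90 ± 0.23) and also fell from E5.0 to E6.0 (-2.79 ± 0.37). It had 14.5 to 42.3 CPM at E5.0, 8.47 CPM or less at E5.5 and 3.81 to 4.90 CPM at E6.0. In culture it had 1.71 to 5.06 CPM in FS cells, 2.84 to 8.26 CPM in AF and 8.56 to 12.2 CPM in AFX. All AFX samples thus lay above every E5.5 and E6.0 embryo, and FS and AF overlapped E6.0. Visceral endoderm markers also fell from E5.0 (311 to 921 CPM) to E6.0 (26.9 to 35.1 CPM). Their part in the Slc39a4 differences was not tested.

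For the NRF2 target genes, the promoters of Gclm and Srxn1 are shown because these genes moved in opposite directions between culture and embryo. Gclm (ENSMUSG00000028124, chr3:122245557-122270732, plus strand) encodes the modifier subunit of glutamate-cysteine ligase, and Srxn1 (ENSMUSG00000032802, chr2:152105516-152111376, plus strand) encodes the enzyme that repairs over-oxidised peroxiredoxins. Capitals mark matches to the antioxidant response element, searched as TGACNNNGC, TGAGNNNGC and TGATNNNGC on both strands in the 250 bases before the RefSeq start.

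Gclm, chr3:122245307-122245556: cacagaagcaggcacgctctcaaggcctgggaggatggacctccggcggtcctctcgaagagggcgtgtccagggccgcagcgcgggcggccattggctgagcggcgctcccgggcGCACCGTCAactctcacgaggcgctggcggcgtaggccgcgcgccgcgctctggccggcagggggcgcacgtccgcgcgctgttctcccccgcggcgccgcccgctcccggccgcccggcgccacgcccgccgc
Srxn1, chr2:152105274-152105523: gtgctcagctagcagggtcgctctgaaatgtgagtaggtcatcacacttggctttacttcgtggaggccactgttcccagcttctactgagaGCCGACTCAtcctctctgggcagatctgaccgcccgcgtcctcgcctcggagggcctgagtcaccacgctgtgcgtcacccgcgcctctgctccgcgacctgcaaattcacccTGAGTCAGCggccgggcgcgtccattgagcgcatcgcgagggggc

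Gclm held 1 match and Srxn1 held 2. Of all 32851 windows, 28.5% held at least 1 and 4.54% at least 2. RefSeq promoters were found for 6 of the 9 members, and those of Hmox1, Gclc and Gsta4 were not among them. The Mt2 window held 1 match to these letters, the Mt1 and Nqo1 windows held none, and Txnrd1 held 1 in 1 of its 3 start windows.

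In cultured cells against epiblasts, 1 member was higher and 7 were lower, or 8 of 9, where 61.8% of the 16614 genes tested were called, 33.9% higher and 27.9% lower. The median member log2 difference was -0.50, against 0.09 over all genes. Apart from the metallothioneins the sizes were modest, and for several members they depended on which stage stood for the embryo. Against E6.0 alone, a comparison added after seeing the data, 5 of 9 were called (Mt1, Mt2, Gclm, Gclc and Srxn1), where 42.1% of the 16614 genes tested were. Mitochondrial genes took 4.26% to 5.78% of counts in culture and 6.31% to 8.95% in epiblasts, and 8 of 11 tested visceral endoderm markers were lower and 1 higher in culture. Their part in the other member differences was not tested.

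Gclm was lower in culture than in the epiblast, and the gap was smaller against E6.0 alone. FS samples had 31.9 to 54.2 CPM (median 39.7), AF had 36.1, 30.0 and 35.9 CPM and AFX had 40.4, 54.4 and 52.1 CPM. Epiblasts had 119, 65.5 and 138 CPM at E5.0, 83.2, 89.1 and 85.1 CPM at E5.5 and 61.1, 55.3 and 60.4 CPM at E6.0. No cultured sample reached the lowest epiblast, and the log2 difference was -1.002 ± 0.11 (SE, adjusted p = 6.75e-08, edgeR), or -0.53 (adjusted p = 0.00885) against E6.0 alone. From E5.0 to E6.0 Gclm fell by 0.89 ± 0.20 on the log2 scale (adjusted p = 0.00767), and the stages did not overlap.

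Gclc (ENSMUSG00000032350, chr9:77754535-77794485, plus strand), the catalytic subunit of the same enzyme, had no called change between stages. It had 85.7, 47.3 and 84.9 CPM at E5.0, 50.9, 77.4 and 77.3 CPM at E5.5 and 78.7, 67.5 and 74.5 CPM at E6.0, with a log2 difference of -0.00 ± 0.21 (SE, adjusted p = 0.995, edgeR) between E6.0 and E5.0. In culture it ran from 35.0 to 76.6 CPM, and the log2 difference from epiblasts was -0.36 ± 0.11 (adjusted p = 0.00579) with overlapping groups. The Gclm to Gclc count ratio was therefore 1.38, 1.39 and 1.63 at E5.0 and 0.776, 0.819 and 0.810 at E6.0, with no overlap. FS cells had ratios of 0.508 to 0.838, AF 0.739 to 0.857 and AFX 0.698 to 0.825, ranges that overlap the E6.0 embryos.

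Gclc also separated AF EpiSCs from the other cultures. AF samples had 48.7, 35.0 and 48.6 CPM, against 55.1 to 76.6 CPM (median 58.6) in FS cells and 57.8, 65.9 and 67.8 CPM in AFX. All 3 AF samples were below all others in culture. The log2 difference was 0.47 ± 0.14 (SE, adjusted p = 0.0261, edgeR) for FS against AF and 0.53 ± 0.16 (SE, adjusted p = 0.0477, edgeR) for AFX against AF, and these comparisons share the AF samples. The first call was lost without the lowest sample, AF passage 15 (0.33, adjusted p = 0.101), and with either line alone (FS1 0.51, adjusted p = 0.0635, and FS2 0.43, adjusted p = 0.0547). The call for AFX against AF was lost when any 1 sample of either group was left out, with log2 differences of 0.39 to 0.60.

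Gsta4 (ENSMUSG00000032348, chr9:78182774-78209349, plus strand), a glutathione transferase that clears the lipid peroxidation product 4-hydroxynonenal, was the NRF2-linked member that moved in the most comparisons. FS1 had 90.9, 93.2 and 102 CPM and FS2 had 89.0, 87.0 and 87.2 CPM. AF had 60.7, 44.6 and 46.8 CPM and AFX had 86.9, 67.9 and 79.0 CPM. The 3 groups did not overlap, with AF lowest. FS exceeded AF by 0.84 ± 0.12 (SE, log2, adjusted p = 0.000234, edgeR) and AFX exceeded AF by 0.62 ± 0.13 (adjusted p = 0.0110), calls that held in all 17 and all 13 alternatives. FS against AFX was 0.22 ± 0.12 (adjusted p = 0.275).

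In the embryo Gsta4 went down stage by stage. It was 216, 207 and 242 CPM at E5.0, 99.4, 133 and 144 CPM at E5.5 and 72.6, 81.7 and 97.4 CPM at E6.0, with no overlap between stages. It fell by 0.84 ± 0.14 on the log2 scale from E5.0 to E5.5 (adjusted p = 0.00459), by 0.58 ± 0.14 from E5.5 to E6.0 (adjusted p = 0.0363) and by 1.42 ± 0.15 from E5.0 to E6.0 (adjusted p = 1.95e-05), all with edgeR. The step from E5.5 to E6.0 was lost without E5.5 embryo 2 or 3 or E6.0 embryo 1 or 2 (-0.55 to -0.46), and the change from E5.0 to E6.0 held in all 12 alternatives. Against all epiblasts cultured cells were lower (-0.90 ± 0.08, adjusted p = 2.87e-09), but against E6.0 alone the difference was -0.24 (adjusted p = 0.102).

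Hmox1 (ENSMUSG00000005413, chr8:75093621-75100589, plus strand), which opens the haem ring to release iron, biliverdin and carbon monoxide, was highest at E5.0. It had 64.6, 59.6 and 98.7 CPM at E5.0, 43.1, 39.8 and 38.2 CPM at E5.5 and 39.4, 34.5 and 38.0 CPM at E6.0. Every E5.0 embryo was above every later one. Hmox1 fell by 0.89 ± 0.18 (SE, log2, adjusted p = 0.0123, edgeR) to E5.5 and by 1.01 ± 0.18 (adjusted p = 0.00152) to E6.0. The first of these missed the threshold without E5.5 embryo 2 (-0.88, adjusted p = 0.0579). Cultured cells had 21.4 to 40.1 CPM (median 34.2) and were lower than all epiblasts pooled (-0.50 ± 0.10, adjusted p = 0.000263), and the difference from E6.0 alone was -0.13 (adjusted p = 0.515). The groups FS and AF differed by -0.25 ± 0.16 (adjusted p = 0.308).

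Txnrd1 (ENSMUSG00000020250, chr10:82833951-82897712, plus strand), the cytosolic thioredoxin reductase, had the highest CPM of the 9 and narrow ranges. It had 535, 395 and 559 CPM at E5.0, 393, 415 and 462 CPM at E5.5 and 346, 389 and 395 CPM at E6.0. From E5.0 to E6.0 it fell by 0.41 ± 0.12 on the log2 scale (adjusted p = 0.0240, edgeR), with E5.0 embryo 2 level with the top of the E6.0 embryos. FS cells had 299 to 386 CPM (median 360), AF had 309, 192 and 292 CPM and AFX had 309, 416 and 369 CPM. Culture was lower than the epiblasts by a log2 difference of -0.40 ± 0.09 (adjusted p = 0.000306), with overlapping groups, and -0.22 (adjusted p = 0.163) against E6.0 alone. FS against AF was 0.41 ± 0.14 (adjusted p = 0.0583) and AFX against AF was 0.46 ± 0.16 (adjusted p = 0.103), so neither passed. In the alternatives FS against AF passed in 6 of 17 (log2 differences 0.23 to 0.53 over all 17) and AFX against AF in 0 of 13. The fall in the embryo was lost on leaving out any 1 of the E5.0 embryos 1 and 4 or any 1 E6.0 embryo (-0.43 to -0.31).

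Srxn1 was the single member higher in culture. It had 8.08 to 13.7 CPM (median 9.55) in FS cells, 11.3, 7.65 and 7.79 CPM in AF and 9.79, 10.2 and 9.56 CPM in AFX. Epiblasts had 8.94, 6.87 and 11.6 CPM at E5.0, 6.89, 3.67 and 4.94 CPM at E5.5 and 4.73, 1.73 and 4.47 CPM at E6.0. E5.0 embryos 1 and 4 sat within the cultured range, and all E6.0 embryos were below it. The log2 difference of culture from epiblasts was 0.80 ± 0.19 (SE, adjusted p = 0.000753, edgeR), and 1.43 against E6.0 alone (adjusted p = 0.000562). Srxn1 fell by 1.36 ± 0.44 from E5.0 to E6.0 (adjusted p = 0.0422), a call that was lost without E5.0 embryo 1 or 4 or any 1 E6.0 embryo (-1.57 to -0.996).

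Nqo1 (ENSMUSG00000003849, chr8:107388225-107403206, minus strand), the quinone reductase often used as a readout of NRF2, was close to the limit of these libraries at 4 to 64 counts each. It had 1.79 to 5.21 CPM in FS cells, 1.23 to 2.04 CPM in AF, 1.91 to 2.62 CPM in AFX and 0.458 to 6.08 CPM in epiblasts. Epiblast values of 6.08 and 0.839 CPM both came from E5.0, so the spread within a stage was as wide as that between groups. No comparison of Nqo1 passed: FS against AF was 0.80 ± 0.39 (SE, log2, adjusted p = 0.172, edgeR), E6.0 against E5.0 was -1.18 ± 0.80 (adjusted p = 0.324) and culture against epiblasts was 0.46 ± 0.33 (adjusted p = 0.238). The last passed without E5.0 embryo 2 (0.74, adjusted p = 0.0492).

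**Figure D3:**
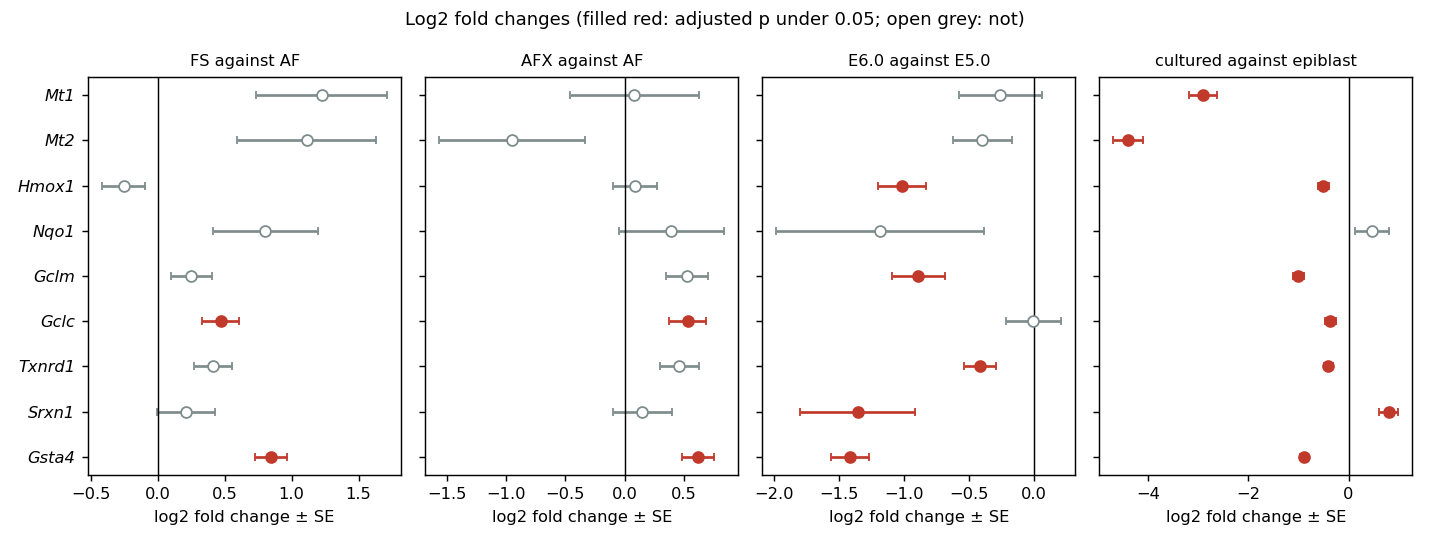
Log2 difference and SE of the 9 genes in 4 comparisons, with filled red points for an adjusted p under 0.05 and open grey points for the rest. Mt1 and Mt2 stand at -2.90 and -4.39 in culture against epiblast, and in FS or AFX against AF the called genes are Gclc and Gsta4.

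Counted over the 9 members, few calls were made between cultures. FS against AF had 2 higher and 0 lower (Gclc and Gsta4), where 8.86% of all 16052 genes tested were higher, 10.6% lower and 19.5% were called in either direction, and the median member difference was 0.47 (0.02 over all genes). FS against AFX had 1 higher (Mt2), with 3.78% of all genes higher, 4.92% lower and 8.7% called, and a member median of 0.07. AFX against AF had 2 higher (Gclc and Gsta4), with 4.3% of all genes higher, 4.42% lower and 8.73% called, and a member median of 0.39. These 3 comparisons share samples. Between FS2 and FS1 no member was called (log2 differences -0.40 to 0.31), where 3.85% of all genes were (2.65% higher, 1.2% lower). AF, the culture with the lowest Gclc and Gsta4, also had the highest sums of fibroblast and visceral endoderm markers among the cultures. Its visceral endoderm sum came mainly from Sox17, Gata6 and Dab2. Of 7 tested fibroblast markers, 5 were lower in FS cells than in AF. The part of either marker set in the Gclc and Gsta4 differences was not tested.

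From E5.0 to E6.0, 5 of 9 members were lower and 0 higher (Hmox1, Gclm, Txnrd1, Srxn1 and Gsta4), where 11.6% of all 14228 genes tested were lower, 10.2% higher and 21.8% called. The member median was -0.89, against -0.02 over all genes. E5.5 against E5.0 had 2 members lower (Hmox1 and Gsta4; 3.75% of all genes lower, 3.07% higher, 6.82% called), and E6.0 against E5.5 had 1 (Gsta4; 2.54% lower, 1.89% higher, 4.43% called). These 3 comparisons share embryos. Visceral endoderm markers moved with the stage: 8 of the 9 tested were lower at E6.0 than at E5.0 (median -4.92), and summed to 746, 921 and 311 CPM in E5.0 embryos 1, 2 and 4. E5.0 embryo 4, with the lowest sum of its stage, had the highest Hmox1, Gclm, Txnrd1, Srxn1 and Gsta4, and embryo 2, with the highest sum and the fewest counts, had the lowest. Embryo 4 also had the highest sum of blood and decidua markers (3 of 6 listed genes read), 7.67 CPM against 1.93 CPM or less in any other library, of which the haemoglobin gene Hba-a1 made 6.12 CPM. Extraembryonic ectoderm markers reached 32.8 CPM in embryo 2 and no more than 8.91 CPM in any other library, and mitochondrial genes took 8.15% to 8.95% of counts at E5.0 and 7.03% to 7.36% at E6.0. Their part in the stage difference was not tested. The count of 5 was 3 without E5.0 embryo 1 or 4 or any 1 E6.0 embryo, and 5 without E5.0 embryo 2. Without that embryo Gclm (-0.59, adjusted p = 0.0121) and Txnrd1 (-0.38, adjusted p = 0.0343, edgeR) were also lower at E5.5 than at E5.0.

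**Figure D4:**
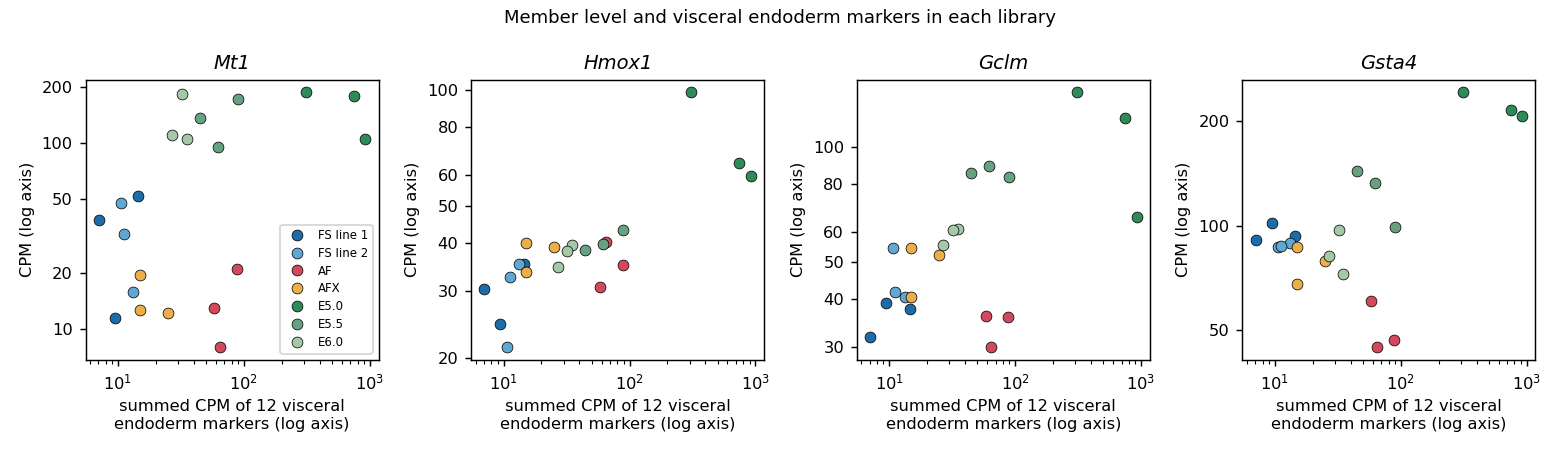
CPM of Mt1, Hmox1, Gclm and Gsta4 against the summed CPM of 12 visceral endoderm markers, 1 point per library on log axes. The E5.0 embryos stand apart at 311 to 921 CPM of marker, the E6.0 embryos lie at 26.9 to 35.1 CPM between AFX and AF, and among the E5.0 embryos the highest level of each gene belongs to the one with the least marker. In AF the marker sum is mainly Sox17, Gata6 and Dab2.

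Levels were compared between genes per kilobase of the principal transcript. In epiblasts Mt1 was highest, at a mean of 287 CPM per kilobase at E5.0 and 242 at E6.0, followed at E5.0 by Gsta4 (227), Mt2 (186) and Txnrd1 (141). The E5.0 embryos' range for Mt1 overlapped those of Gsta4 and Mt2. In FS cells Txnrd1 (100.4) and Gsta4 (93.7) led, and Mt1 had 59.9 CPM per kilobase. Hmox1 (19.0), Gclc (17.98), Mt2 (16.6), Gclm (7.30), Srxn1 (3.70) and Nqo1 (1.88) followed in FS cells. AF cells kept Txnrd1 first (74.9) and Mt2 at 7.60.

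The upstream NRF2 regulators were read next. Nfe2l2, which encodes NRF2, had 30.0 to 39.6 CPM in FS cells, 29.6 to 34.3 CPM in AF, 27.5 to 34.7 CPM in AFX, 43.3 to 57.3 CPM at E5.0, 43.3 to 56.4 CPM at E5.5 and 30.9 to 37.7 CPM at E6.0. It fell by 0.55 ± 0.17 on the log2 scale from E5.0 to E6.0 (adjusted p = 0.0324, edgeR) and was lower in culture than in the pooled epiblasts by a log2 difference of -0.42 ± 0.09 (adjusted p = 0.000214). The E6.0 embryos, at 30.9 to 37.7 CPM, lay within the cultured range of 27.5 to 39.6 CPM. Sqstm1, an adaptor that can take KEAP1 to autophagy and is itself an NRF2 target, fell from E5.0 to E6.0 by 1.02 ± 0.19. Visceral endoderm markers, at 311 to 921 CPM at E5.0 and 26.9 to 35.1 CPM at E6.0, fell over the same stages. Their part in the Nfe2l2 and Sqstm1 falls was not tested. Keap1 was higher in culture by 0.34 ± 0.14 (adjusted p = 0.0435). Mafk, a small MAF partner of NRF2, was lower in culture by a log2 difference of -0.94 ± 0.17 (adjusted p = 4.93e-05). Of the 10 regulators listed, 0 were higher and 2 lower from E5.0 to E6.0, where 21.8% of all genes were called, and 2 were higher and 3 lower in culture against epiblasts, where 61.8% were. Neither count stands above its background. The small MAF genes Maff (-1.28 ± 0.25) and Mafk (-1.11 ± 0.23), partners of NRF2, were the 2 regulators lower in FS cells than in AF, and 0 were higher. In that comparison 10.6% of all genes were lower and 19.5% were called. In FS against AFX, Maff was also lower (-0.93 ± 0.26) and Mafk was not called (0.02 ± 0.25). Mafk was lower in AFX than in AF (-1.14 ± 0.28). Fibroblast markers, at 226 to 267 CPM in AF and 19.9 to 50.3 CPM in FS cells, differed between the same groups. Their part was not tested.

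Further NRF2 targets outside the members gave the following counts. Of 26 listed, 21 were tested in the embryo, and 1 rose and 9 fell from E5.0 to E6.0 (median -0.32, against -0.02 over all genes), where 10.2% of all genes were higher and 11.6% lower. Those named by rule were the glutathione peroxidase Gpx2 (-3.28 ± 0.98), the carbonyl reductase Cbr3 (-2.72 ± 0.41) and the biliverdin reductase Blvrb (-1.85 ± 0.34), and the exporter Abcc4 rose (0.76 ± 0.16). Visceral endoderm markers, at 311 to 921 CPM at E5.0 and 26.9 to 35.1 CPM at E6.0, fell over the same stages, and their part in these counts was not tested. In FS cells against AF, 4 of 20 tested were higher and 0 lower (median 0.14), where 8.86% of all genes were higher and 10.6% lower. They included the ferritin light chain Ftl1 (2.02 ± 0.19), Abcc4 (1.76 ± 0.20) and the glutathione transferase Gstp1 (1.36 ± 0.14). Ftl1 had 209 to 289 CPM in FS cells, 46.2 to 79.6 CPM in AF, 60.7 to 96.3 CPM in AFX and 302 to 702 CPM in epiblasts. Fibroblast markers, at 226 to 267 CPM in AF and 19.9 to 50.3 CPM in FS cells, differed between the same groups, and their part was not tested either. Ferritin and Gstp1 reads are uncertain, since near-identical copies of these genes exist in the mouse genome.

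In culture against epiblasts, 5 of 22 tested targets were higher and 12 lower (median -0.38), where 33.9% of all genes were higher and 27.9% lower. Of 11 tested visceral endoderm markers, 8 were lower and 1 higher in culture. Mitochondrial genes took 4.26% to 5.78% of counts in culture and 6.31% to 8.95% in epiblasts. The part of either in these counts was not tested. The cystine transporter Slc7a11 (1.33 ± 0.42) was higher and Ftl1 (-2.13 ± 0.10) was lower. The epoxide hydrolase Ephx1 was also higher, at 0.977 to 5.71 CPM in culture and 0.394 CPM or less in each epiblast, where too few counts remain for a fold. Gpx2, at 0.649 CPM or less in culture and up to 8.63 CPM at E5.0, and Osgin1 were among the lower genes. Of the other antioxidant enzymes, 4 of 21 were higher, among them the glutathione peroxidases Gpx3 (1.59 ± 0.35) and Gpx8 (1.57 ± 0.39) and catalase (Cat, 0.84 ± 0.16), and 7 lower, among them Glrx (-1.13 ± 0.22), Gpx1 (-0.97 ± 0.09) and Prdx3 (-0.80 ± 0.14), so that the share called was not above the 61.8% of all genes.

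The genes whose profile over the 21 libraries lay nearest to each member were found by the root mean square difference of centred log2 CPM over 8608 genes. The nearest to Mt2 was Mt1 (0.80, with an SD of 2.23 for Mt2 itself), followed by Gm37324 (0.88) and Reg2 (0.94). The nearest to Mt1 were Zbtb8a (0.60), Fam171b (0.65) and Grhl2 (0.67). Among the NRF2-linked members the nearest were Umps for Txnrd1 (0.13), Brcc3 for Gclc (0.15), Txlng for Gclm (0.21), Snx3 for Hmox1 (0.25), Gm4631 for Gsta4 (0.29), Ccl25 for Srxn1 (0.37) and BC005561 for Nqo1 (0.53). The closest members to each other were Gclc and Txnrd1 (0.20). Genes that vary little lie near many others on this measure.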

How the data were processed

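Raw counts per gene from 21 mouse RNA-seq libraries were used as the authors deposited them, as whole numbers with no normalisation. Per the submitters' processing notes, Trim Galore, TopHat2 2.1.0 and featureCounts 1.5.0 were used with the mm10 build. The annotation release, strand setting and treatment of shared reads are not given in the sources used here.

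Fits were made with edgeR 4.0.16 in R 4.3.3 (filterByExpr, TMM, robust quasi-likelihood F-tests, two-sided, Benjamini-Hochberg adjustment over all genes tested, threshold 0.05). Cultured comparisons used the 12 cultured samples, stage comparisons the 9 epiblasts, and culture against epiblasts all 21, as the mean of FS, AF and AFX against the mean of the 3 stages. CPM used TMM over all 21 libraries. Levels per kilobase used the principal transcript in GENCODE M21 (GRCm38). Promoter sequences came from RefSeq (GRCm38.p6). Ratios of counts within a library were computed in Python 3.11.15. The scripts were tested on simulated data. Of 2-fold changes, 40% were recovered in FS against AF, 52% in FS2 against FS1, 37% in E6.0 against E5.0 and 69% in culture against epiblasts. A difference of that size that did not pass can therefore be a missed change.

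All 9 members were tested in every comparison and enter its counts. Values for single members are given for the calls and for the comparisons a paragraph turns on. In the further lists, the genes that could be named were the 3 per direction with the largest called change in a comparison, and not all of these are given. The members and lists were chosen with earlier results of these data known. Some list genes are given with CPM where a member's result is set beside them.

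AF and AFX share passage numbers and the stages share embryo numbers. Deviations from group means correlated at -0.12, -0.09 and 0.20 for passages 14, 15 and 16, and from -0.05 to 0.10 for same-numbered embryos, so the numbers were not taken to pair samples. Within groups, all 21 pairs of libraries differed by more than sampling noise (chi-square over degrees of freedom 4.84 to 28.97). Alternatives were DESeq2 1.42.0, its size factors, other filters, single FS lines, leaving out each sample and a block on the shared number.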

Additional observations from a re-analysis of the deposited data

How the results depend on the processing

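Mt1 and Mt2 in culture against epiblasts, Gsta4 in FS and AFX against AF and Gsta4 from E5.0 to E6.0 kept their calls in every alternative run. Against E6.0 alone, 5 members and 6989 genes were called in culture. Members called in FS against AF were 4 with DESeq2's Wald test (3723 genes), 1 with FS1 or FS2 alone (2172 and 3431 genes) and 1 to 3 on leaving out a sample (2263 to 3386 genes). In FS against AFX they were 2 with the Wald test (1980 genes), 0 without the filter (1352 genes) and 0 to 1 on leaving out a sample (820 to 1485 genes). In AFX against AF there was 1 member with only those groups (1175 genes) and 1 on leaving out a sample (732 to 1129 genes). FS2 against FS1 had 1099 genes with the Wald test, 1298 without the filter, 1045 with only those groups and 316 to 478 on leaving out a sample.

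E5.5 against E5.0 had 1590 genes with the Wald test, 1659 without the filter, 453 with only those groups and 371 to 1260 on leaving out an embryo, with 1 to 4 members. E6.0 against E5.5 had 1075, 1107, 1445 and 238 to 372 in the same order, with 2 members without the filter, 2 with only those groups and 0 to 1 on leaving out an embryo. E6.0 against E5.0 had 1905 to 3362 genes and 3 to 5 members on leaving out an embryo. Differences near 0 changed sign: Srxn1 in FS2 against AF (-0.0016), and Gclc in E6.0 against E5.0 without the filter (0.028) and on leaving out an embryo (-0.22 to 0.15). The cause was not tested.

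With a replicate block on the shared number, AFX against AF had 907 genes and 1 member, E5.5 against E5.0 had 70 genes and 0 members, E6.0 against E5.5 had 1607 genes and 2 members, and E6.0 against E5.0 had 1372 genes and 1 member, with Gclc at 0.18. Embryo 4 of E5.0 has no partner and embryo 3 of the later stages has none at E5.0, so fewer embryos bear on the blocked comparisons with E5.0. Depth limits Nqo1 (4 to 64 counts) and Mt2 in EpiSCs (from 13 counts).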

Other observations

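Haem and iron genes that are not NRF2 members were also followed. Of 12 tested, 1 rose and 4 fell from E5.0 to E6.0, where 21.8% of all genes were called. Alas1, the first enzyme of haem synthesis, fell by 1.61 ± 0.24 (SE, log2, edgeR) and had 36.2 to 48.9 CPM at E5.0, 20.3 to 29.1 CPM at E5.5 and 9.59 to 16.3 CPM at E6.0, with no overlap between stages. The iron exporter Slc40a1 fell by 1.501 ± 0.33 over the same stages. Summed visceral endoderm markers went from 311 to 921 CPM at E5.0 to 26.9 to 35.1 CPM at E6.0, and their part in these falls, and in that of Gpx4 given next, was not tested. Slc40a1 was also lower in FS cells than in AF (-2.51 ± 0.26), with 1.47 to 2.33 CPM in FS cells, 3.35 to 4.65 CPM in AFX and 7.70 to 14.7 CPM in AF. Fibroblast markers were highest in AF (226 to 267 CPM), and their part in this difference was not tested.

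The phospholipid peroxidase Gpx4 (pseudogene copies make its reads uncertain) fell from 59.2 to 99.1 CPM at E5.0 to 22.1 to 30.2 CPM at E6.0 (-1.74 ± 0.22, log2, edgeR) and was lower in FS cells than in AF (-0.89 ± 0.23). The glutaredoxin Glrx separated the EpiSC media, with 10.02 to 12.9 CPM in AF and 1.41 to 3.91 CPM in AFX (-2.10 ± 0.36). AF also had more fibroblast marker (226 to 267 against 37.0 to 61.3 CPM) and visceral endoderm marker (58.3 to 88.5 against 14.998 to 24.9 CPM) than AFX. The visceral endoderm sum in AF came mainly from Sox17, Gata6 and Dab2. The part of either marker set in the Glrx and Gpx4 differences was not tested.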
